A study of Mus musculus with 18 samples.

Results

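The genes examined here encode the proteins that fuse mitochondria, divide them and shape their inner membrane. The 10 members are Mfn1, Mfn2, Opa1, Oma1, Dnm1l, Fis1, Mff, Immt, Chchd3 and Samm50. The rule that names them is their known function and uses no measured value, although earlier results of these data were known when the group was drawn up. All 10 are among the 55450 genes of the count table, and all 10 were among the 16270 genes that passed the filter on low counts. RNA was sequenced from the left ventricle of male FVB/N mice of 4 groups. WT CD (n = 4) were wild-type mice on control diet, WT ERTU (n = 5) were wild-type mice fed ertugliflozin, Gαq CD (n = 5) were mice with cardiac-specific overexpression of Gαq on control diet, and Gαq ERTU (n = 4) were Gαq mice fed ertugliflozin. Ertugliflozin (ERTU) is an inhibitor of the renal sodium-glucose cotransporter SGLT2 and was given at 0.5 mg per g of chow from 4 weeks of age for 16 weeks, and mice of all 4 groups were 20 weeks old when the heart was taken. Each library came from the heart of a separate mouse, WT mice were littermates of Gαq mice, and the promoter that drives Gαq is not given in the sources used here.

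The libraries held between 15383566 (WT CD) and 20908363 (Gαq CD) counts. Gnaq, the gene that encodes Gαq, measured between 45.49 and 229.7 CPM (the count as a share of the library, with TMM scaling) in the WT libraries and between 1641 and 11670 CPM in the Gαq libraries, so the genotype labels and the transgene went together in all 18. The labelled tissue was checked against 10 cardiomyocyte markers, whose summed level was 79380 to 111600 CPM in WT CD and 75200 to 99290 CPM in Gαq CD, with medians of 96280 and 81850 CPM, and 73460 to 106900 CPM in WT ERTU and 74480 to 102600 CPM in Gαq ERTU. Summed levels of 8 fibroblast markers were higher in Gαq, at 3013 to 4390 CPM in Gαq CD against 1659 to 3149 CPM in WT CD, and at 2897 to 3572 CPM in Gαq ERTU against 1542 to 2885 CPM in WT ERTU. Of the 8 fibroblast markers, 5 were higher by genotype, and of the 10 cardiomyocyte markers, 1 was higher and 3 were lower. For comparison, 19.5% of all tested genes were called by genotype in either direction and 9.83% were called lower. Counts on marker lists this short say little beside those shares. Of 6 endothelial markers, 2 were lower by genotype, with summed levels of 1025 to 1237 CPM in Gαq CD against 1143 to 1500 CPM in WT CD and of 1039 to 1202 CPM in Gαq ERTU against 1208 to 1380 CPM in WT ERTU. Summed atrial markers varied from 5.557 to 906.5 CPM between libraries, and the 4 tested were all above 0 by genotype (median log2 fold change 1.40) with 0 called by genotype or diet. In bulk tissue, fewer cells of a type and less RNA per cell cannot be told apart, and the part that the cardiomyocyte, fibroblast, endothelial and atrial levels have in the values below was not tested.

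Mitochondria of the adult heart form a dense network whose units join and split. Mfn1 and Mfn2 encode mitofusins, GTPases of the outer membrane that tether and fuse neighbouring mitochondria, and Opa1 encodes the GTPase that fuses the inner membrane and holds cristae closed at their necks. Oma1 encodes a stress-activated protease that cuts OPA1. Fission uses DRP1, a cytosolic GTPase encoded by Dnm1l, which is drawn to the outer membrane by adaptors that include MFF and FIS1. Cristae junctions are built by the MICOS complex, of which mitofilin (Immt) and CHCHD3 (Chchd3) are subunits, and MICOS contacts SAMM50 (Samm50), the outer membrane protein that inserts barrel proteins.

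In WT CD hearts, transcripts of the members covered a wide range of levels once counts were divided by length. With the longest annotated transcript as the length, Chchd3 stood highest at 357 ± 47.9 CPM per kb (mean ± SD, n = 4), followed by Mfn2 at 281 ± 14.4 and Immt at 210.6 ± 23.2. Fis1 (103.8 ± 8.84), Mfn1 (93.4 ± 7.88), Samm50 (76.5 ± 5.60) and Opa1 (52.3 ± 4.98) lay between, and Dnm1l (37.1 ± 3.99), Mff (35.9 ± 3.73) and Oma1 (22.8 ± 3.00) were lowest. Library ranges overlapped for the neighbouring pairs Chchd3 and Mfn2, Fis1 and Mfn1, and Dnm1l and Mff, and did not overlap for the other neighbours. The order depended on the length used, because Immt, Mff, Chchd3 and Fis1 have much exon sequence outside their longest transcript. With all exons merged, Mfn2 led at 234.8 CPM per kb, Immt dropped to 64.5 and Mff was lowest at 14.4. Mfn2 was above Mfn1, and Opa1 above Oma1, with either length.

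**Figure D1:**
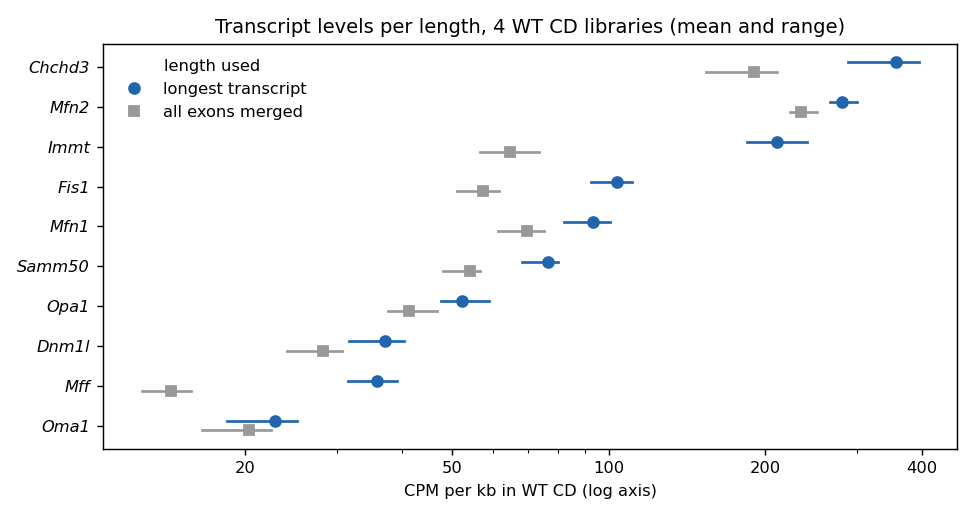
Level of each member in the 4 WT CD libraries, in CPM per kb on a log axis. Points are means and lines run from the lowest to the highest library, with blue for the longest annotated transcript and grey for all exons merged. Chchd3 and Mfn2 were the highest with either length, and Oma1 and Mff the lowest.

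Opa1 was the member that differed most between genotypes. Its 4 WT CD libraries measured 330.2, 367.5, 310 and 296.2 CPM, and its 5 Gαq CD libraries measured 287.2, 224.8, 231.2, 235.1 and 194.3 CPM. Every Gαq CD library was below every WT CD library. How many of all tested genes separate in this way was not counted, here or for the genes below. On ertugliflozin, WT ERTU libraries measured 354.8, 349.9, 280.8, 237.9 and 367.9 CPM, and Gαq ERTU libraries measured 167, 288.2, 217.3 and 184.6 CPM. These groups overlapped, since library 17 of Gαq ERTU (288.2 CPM; library numbers are those of the count table) was above 2 WT ERTU libraries. Across both diets, 7 of 9 Gαq libraries were below the lowest of the 9 WT libraries. With diet in the model, Opa1 fell by 0.52 ± 0.11 on the log2 scale (± SE, 95% interval -0.74 to -0.30), which is a change of -30.4% (edgeR quasi-likelihood test, adjusted p = 0.00118).

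Immt, which encodes the core organiser of cristae junctions, was the other member that changed with genotype. It measured 743.3, 835.7, 706.8 and 642.4 CPM in WT CD and 696, 538.9, 560.9, 642.6 and 592.7 CPM in Gαq CD. These groups overlapped, with 3 of the 5 Gαq CD libraries below every WT CD library. It measured 818.2, 810.2, 720.6, 725.1 and 797.1 CPM in WT ERTU and 652.1, 687.5, 590.8 and 562.5 CPM in Gαq ERTU, and here every Gαq library was below every WT library. With diet in the model, Immt fell by 0.29 ± 0.07 on the log2 scale (95% interval -0.44 to -0.15), a change of -18.4% (edgeR, adjusted p = 0.00493).

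Those 2 genes made up the whole call by genotype: 2 of 10 members were lower and 0 were higher, which is 20% of the members against 19.5% of all tested genes called in either direction and 9.83% called lower. The median log2 fold change of the 10 members was -0.08, against 0.0038 over all tested genes, and 9 of 10 members were below 0. The share of members called is close to the background of the whole table, so the count is not a result about the members as a set.

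The other fusion genes did not pass the test. Mfn1 measured 458.4, 435.2, 435.6 and 374.5 CPM in WT CD against 421.8, 344, 306.1, 378.5 and 344.8 CPM in Gαq CD. In WT ERTU it measured 492.1, 463.1, 384.4, 360.2 and 488.9 CPM against 410.4, 405.5, 377.5 and 340.1 CPM in Gαq ERTU. The groups overlapped on both diets, and 6 of 9 WT libraries were above the highest Gαq library. Its log2 fold change by genotype was -0.22 ± 0.08 (95% interval -0.38 to -0.05, edgeR adjusted p = 0.0563), so it lay just outside the threshold of 0.05. Mfn2, the more abundant mitofusin, had group means of 1220 ± 62.4 CPM in WT CD, 1181 ± 205.8 in Gαq CD, 1234 ± 176.8 in WT ERTU and 1112 ± 220.3 in Gαq ERTU. Its log2 fold change by genotype was -0.10 with a 95% interval of -0.30 to 0.11 (edgeR adjusted p = 0.539), so a change larger than the fall of Opa1 lay outside that interval.

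Oma1, the protease that acts on OPA1, had the lowest counts of the members. It measured 48.15, 46.89, 44.34 and 35.41 CPM in WT CD and 43.95, 39.92, 43.88, 39.28 and 35.24 CPM in Gαq CD. It measured 46.47, 47.32, 43.61, 33.72 and 47.16 CPM in WT ERTU and 38.81, 39.19, 32.31 and 33.73 CPM in Gαq ERTU. Both pairs of groups overlapped because of a single low WT library in each, library 5 of WT CD and library 14 of WT ERTU. Its log2 fold change by genotype was -0.19 ± 0.08 (95% interval -0.36 to -0.03, edgeR adjusted p = 0.0962). Without library 5 of WT CD the adjusted p was 0.0259, and without library 14 of WT ERTU it was 0.0342. These were the only 2 passing fits among 18 that each left out 1 library, and the adjusted p of Oma1 ran up to 0.19. By genotype, Mfn1 too passed the test without either of those libraries (adjusted p = 0.0379 and 0.0218), without library 6 of Gαq CD (0.0302) and without library 13 of WT ERTU (0.0412). Mfn1 did not pass in the rest of the 18 fits, where its adjusted p ran up to 0.113.

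The fission genes did not differ between genotypes by more than the spread between libraries. Dnm1l had a log2 fold change of -0.04 (95% interval -0.24 to 0.16, edgeR adjusted p = 0.828), with libraries from 117.3 to 187.6 CPM over the 4 groups. Mff, the adaptor that recruits DRP1, had -0.02 (-0.14 to 0.11, adjusted p = 0.884) and was the steadiest member, with libraries from 123.3 to 155.3 CPM. Fis1 was the only member above 0, at 0.07 (-0.10 to 0.24, adjusted p = 0.619), with libraries from 86.09 to 122.2 CPM. A fall as large as that of Opa1 lay outside the 95% interval of all 3.

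Chchd3 and Samm50, the other members of the cristae group, did not pass either. Chchd3 had a log2 fold change by genotype of -0.07 (95% interval -0.25 to 0.10, edgeR adjusted p = 0.61) and ranged from 422.6 to 632.6 CPM. Samm50 had -0.05 (-0.19 to 0.08, adjusted p = 0.624) and ranged from 304.9 to 392.9 CPM. Among the 3 members that build and anchor cristae junctions, therefore, Immt alone was lower by the test, and whether its change differs from that of the other two was not tested.

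**Figure D2:**
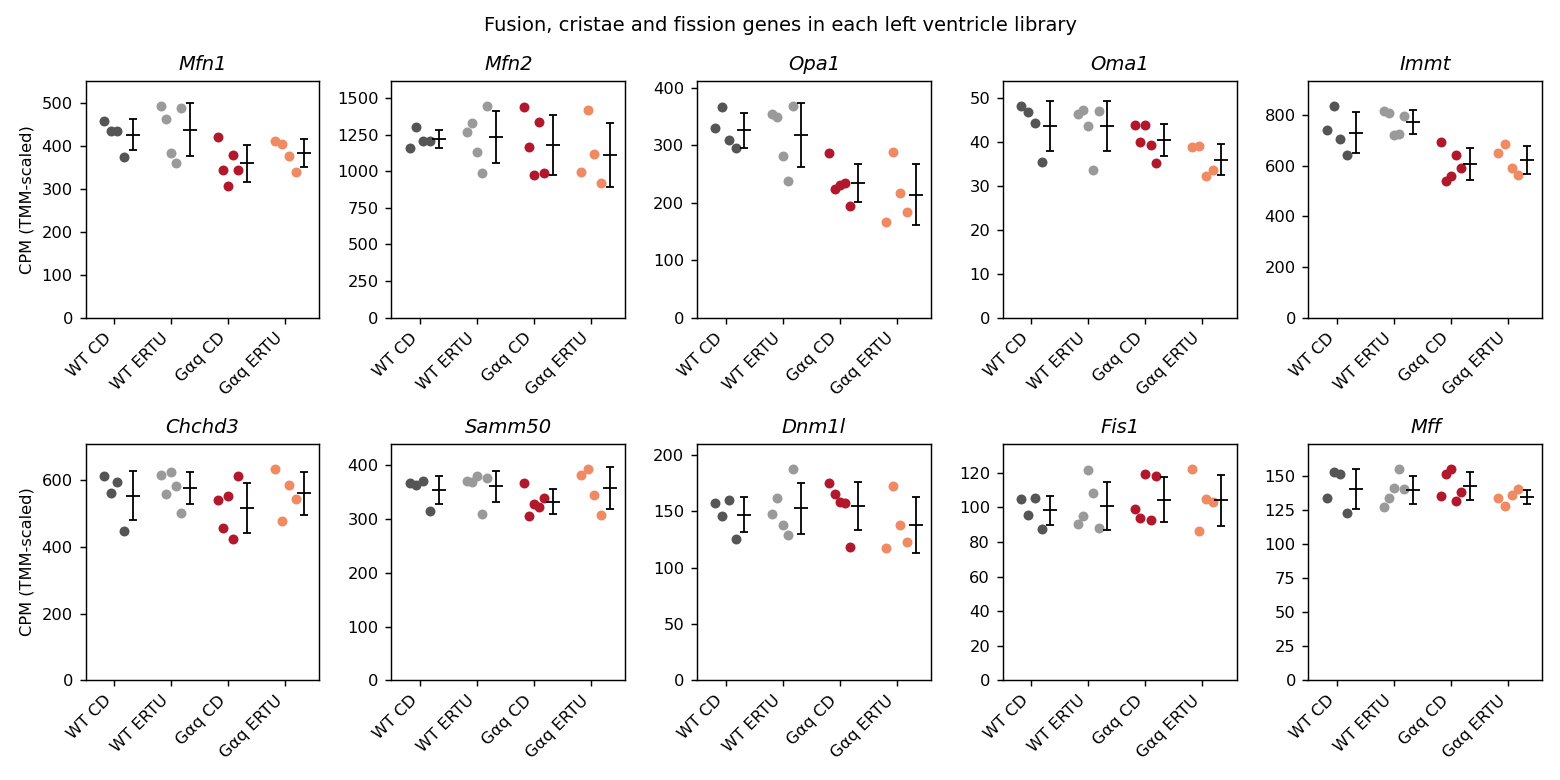
Each member in each library, in TMM-scaled CPM on axes that start at 0. Points are libraries in the order of the count table, and the bar beside each group is the mean ± SD (n = 4 to 5). Opa1 and Immt lie lower in both Gαq groups, and the fission genes Dnm1l, Fis1 and Mff overlap across all 4 groups.

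The same questions were asked on each diet alone, where fewer libraries enter each comparison. In Gαq CD against WT CD, 0 of 10 members passed, against 7.92% of all genes called and 4.02% called lower, while 3 members (Opa1, Immt and Mfn1) had an unadjusted p under 0.05. Opa1 was at -0.48 ± 0.15 (edgeR adjusted p = 0.0625) although the groups did not overlap, and Immt was at -0.27 ± 0.10 (adjusted p = 0.118). DESeq2, run as an alternative, called 1 member there, Opa1 (adjusted p = 0.0386), and 1670 of 18194 genes over all. In Gαq ERTU against WT ERTU, 1 of 10 members passed, against 7.98% of all genes called and 4.15% called lower. Opa1 fell by 0.57 ± 0.16 on the log2 scale (adjusted p = 0.0246), and Immt was at -0.31 ± 0.10 (adjusted p = 0.0679) although these groups did not overlap. The Opa1 call on ertugliflozin was lost without any of 6 libraries, with an adjusted p of 0.0581, 0.0635 and 0.0637 without WT ERTU libraries 11, 12 and 15 and of 0.093, 0.0614 and 0.0928 without Gαq ERTU libraries 16, 18 and 20.

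Ertugliflozin was not followed by a called change in any member. With genotype in the model, 0 of 10 members passed, and 0% of all genes were called by edgeR, although 1194 genes (7.34%) had an unadjusted p under 0.05 and DESeq2 called 2 genes. In WT mice and in Gαq mice taken alone, 0 of 10 members and 0% of all genes were called by edgeR, with 349 and 1195 genes at an unadjusted p under 0.05 and with 0 and 5 genes called by DESeq2. No member had an unadjusted p under 0.05 in any of these 3 comparisons, and DESeq2 called 0 members in each. Opa1 was at -0.03 (95% interval -0.36 to 0.29) in WT mice and at -0.13 (-0.45 to 0.19) in Gαq mice. Immt was at 0.08 (-0.13 to 0.30) in WT mice and at 0.04 (-0.18 to 0.26) in Gαq mice. A rise of Opa1 in Gαq mice as large as its fall by genotype lay outside that interval. Single libraries moved the Opa1 value in Gαq mice, to -0.03 without library 16 of Gαq ERTU, to -0.06 without library 20 of Gαq ERTU, to -0.05 without library 6 of Gαq CD and to -0.31 without library 17 of Gαq ERTU, and it did not pass the test in any of these fits. The member furthest from 0 in Gαq mice was Dnm1l, at -0.17 (-0.45 to 0.11, adjusted p = 0.738).

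The effect of ertugliflozin was also compared between genotypes with an interaction term. Here 0 of 10 members and 0% of all genes passed in edgeR, 308 genes had an unadjusted p under 0.05 and DESeq2 called 0. The largest member difference was that of Dnm1l, at -0.22 with a 95% interval of -0.62 to 0.17. For Opa1 it was -0.10 (-0.55 to 0.36) and for Immt -0.04 (-0.35 to 0.26), so the effect in Gαq and WT mice could differ by up to those bounds without being detected.

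**Figure D3:**
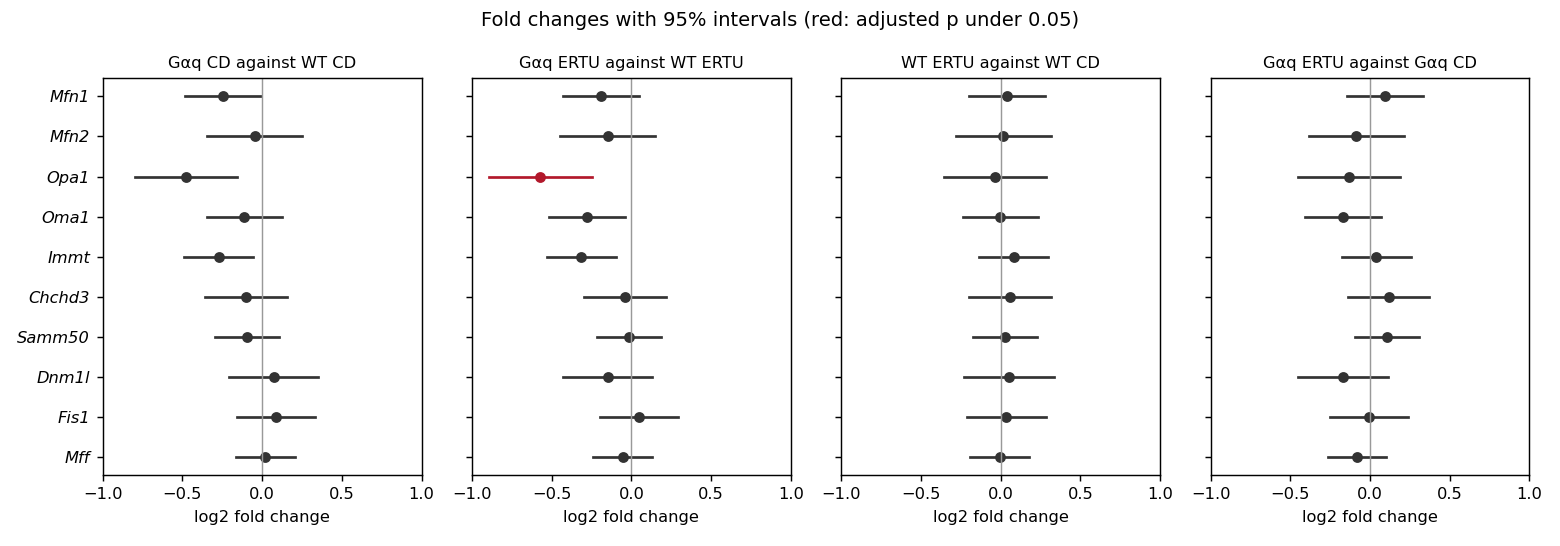
Log2 fold change of each member in 4 comparisons, with points for estimates and lines for 95% intervals from the edgeR fit, and red for an adjusted p under 0.05. Opa1 lies left of 0 in both comparisons of genotype, and every interval for ertugliflozin crosses 0.

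Pairs of members, of opposing or of like function, were also set against each other within each library, as a description with no test. The log2 ratio of Opa1 to Oma1 counts averaged 2.90 ± 0.14 (SD) in WT CD and 2.86 ± 0.11 in WT ERTU, and 2.53 ± 0.12 in Gαq CD and 2.55 ± 0.34 in Gαq ERTU. It ran from 2.78 to 3.06 in WT CD and from 2.40 to 2.71 in Gαq CD, with no overlap, and from 2.11 to 2.88 in Gαq ERTU, which overlapped WT ERTU (2.69 to 2.96). The log2 ratio of Mfn2 to Dnm1l, fusion to fission, averaged 3.06 in WT CD, 3.01 in WT ERTU, 2.93 in Gαq CD and 3.01 in Gαq ERTU, and its ranges overlapped in all 4 groups. That of Mfn1 to Mfn2 averaged -1.52, -1.49, -1.71 and -1.52 in the same order. That of Chchd3 to Immt averaged -0.41, -0.43, -0.24 and -0.16. On control diet the Chchd3 to Immt range of Gαq CD (-0.60 to 0.045) contained that of WT CD (-0.58 to -0.25). Its Gαq ERTU range overlapped WT ERTU (-0.67 to -0.21) through library 17 alone (-0.53), and without that library the Gαq ERTU mean was -0.04 ± 0.02 (SD, n = 3).

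Opa1 lies on chromosome 16 from 29579334 to 29654884 on the plus strand, and Immt on chromosome 6 from 71831331 to 71877388 on the plus strand (GRCm38). No other annotated gene overlaps Opa1, and the genes that overlap Immt lie on the opposite strand. Fis1, on chromosome 5 from 136953275 to 136966234 on the plus strand, has no overlapping gene. Mff, Chchd3 and Samm50 each share their strand with an overlapping annotated gene, so their counts may be less certain. Overlap was taken over whole gene spans, introns included, and shared exon sequence was not checked. The study's methods describe same-strand counting, and whether the library kit marked strand is not given in the sources used here.

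Start regions of the 2 genes that were lower and of Fis1, which was not, are shown because many nuclear genes for mitochondrial proteins carry binding motifs for the factors NRF1 and GABPA there. Each runs from 250 bases before a RefSeq start to 30 bases into the transcript, on the gene's strand, read from RefSeq (GRCm38.p6). They lie at chr16:29579084-29579363 (Opa1), chr6:71831070-71831349 (Immt) and chr5:136953025-136953304 (Fis1, the first of its RefSeq starts). Capitals mark matches to GCGCANGCG (NRF1) or CCGGAAG (GABPA) on either strand.
Opa1: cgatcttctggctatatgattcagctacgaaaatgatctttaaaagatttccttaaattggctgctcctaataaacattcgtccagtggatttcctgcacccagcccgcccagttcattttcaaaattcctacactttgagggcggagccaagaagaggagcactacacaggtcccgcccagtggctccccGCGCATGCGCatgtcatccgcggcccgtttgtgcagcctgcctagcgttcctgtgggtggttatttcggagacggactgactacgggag
Immt: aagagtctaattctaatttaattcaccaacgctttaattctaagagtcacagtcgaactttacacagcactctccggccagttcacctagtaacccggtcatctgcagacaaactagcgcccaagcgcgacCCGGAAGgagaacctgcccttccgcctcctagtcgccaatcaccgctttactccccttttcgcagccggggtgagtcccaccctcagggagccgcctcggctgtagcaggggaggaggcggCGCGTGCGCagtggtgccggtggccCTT
Fis1: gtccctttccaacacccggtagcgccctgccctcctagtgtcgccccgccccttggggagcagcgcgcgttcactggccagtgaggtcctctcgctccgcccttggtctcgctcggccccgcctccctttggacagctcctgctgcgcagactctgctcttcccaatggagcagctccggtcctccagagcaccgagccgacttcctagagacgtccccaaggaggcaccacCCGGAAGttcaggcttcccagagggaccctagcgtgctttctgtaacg
In Opa1 an NRF1 match began at position -59 and overlapped its own match on the other strand at -58. Immt held an NRF1 match at position 3 after the start, a GABPA match at -119 and another at 28, whose last bases lie past the printed end. Fis1 held a GABPA match at -18. Over all members, 3 of 10 (Opa1, Immt and Oma1) had an NRF1 match and 5 of 10 (Mfn1, Fis1, Chchd3, Immt and Dnm1l) had a GABPA match in at least 1 start window. These windows are 300 bases long, from 250 before to 50 after a start, and some members have several. Counted by window, 3 of the members' 15 held NRF1 and 6 of 15 held GABPA, and of 32851 windows of that length over all genes, 6.25% held NRF1 and 8.86% held GABPA. The letters TNAAGGTCA (an ERR element), AAGATGGCG (YY1) and TGACGTCA (CRE) were found in 0 of 10 members and in 1.28%, 1.4% and 1.79% of all windows. Member windows were richer in G and C than the rest, with a median of 59.3% against 52.7%. NRF1 matches stood in both lower members, Opa1 and Immt, and in Oma1, which was not called. GABPA matches stood in Immt, which was lower, and in Mfn1, Fis1, Chchd3 and Dnm1l, which were not called. Whether either motif has a part in the changes was not tested.

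Partners of the members were followed in 5 further lists with 54 genes, of which 51 passed the filter on low counts (Gdap1, Mtfr2 and Pld6 did not). By genotype, 20 of 51 (39.2%) were lower and 1 was higher, against 9.83% of all genes lower, and their median log2 fold change was -0.13. By diet, 0 of 51 passed.

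Among genes that act on OPA1 or hold the inner membrane, 6 of 12 were lower by genotype, against 9.83% of all tested genes. The list had 0 higher genes and a median of -0.22. Phb2, a prohibitin of the inner membrane scaffold, fell by 0.43 ± 0.08 on the log2 scale (edgeR adjusted p = 0.00057). Letm1, an inner membrane ion exchanger, fell by 0.41 ± 0.09 (adjusted p = 0.00243). The listed subunits of the matrix-facing AAA protease fell, Afg3l2 by 0.34 ± 0.08 (adjusted p = 0.00615) and Spg7 by 0.24 ± 0.06 (adjusted p = 0.0103). Htra2, a protease of the intermembrane space, fell by 0.32 ± 0.07 (adjusted p = 0.00131), and each of its Gαq groups lay below the WT group on the same diet.

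Of 9 partners of MICOS and SAM, 3 were lower, against 9.83% of all tested genes, and the list median was -0.10. Apool and Apoo, apolipoprotein-like subunits of MICOS, fell by 0.43 ± 0.07 (edgeR adjusted p = 0.00024) and by 0.36 ± 0.09 (adjusted p = 0.00783). Apool averaged 49.6 ± 4.70 CPM in WT CD and 40.2 ± 4.5 CPM in Gαq CD. The remaining call was Mtx2, a metaxin that works with SAMM50.

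In the fission list, 7 of 14 genes were lower, against 9.83% of all tested genes, and 1 was higher. The members Dnm1l, Fis1 and Mff were not called. Mief2 and Mief1 encode outer membrane receptors for DRP1. Mief2 fell by 0.52 ± 0.08 (edgeR adjusted p = 3.2e-05), from 48.2 ± 3.59 CPM in WT CD to 33.5 ± 3.31 CPM in Gαq CD. Mief1 fell by 0.27 ± 0.08 (adjusted p = 0.0184). Slc25a46, an outer membrane carrier-like protein, fell by 0.38 ± 0.06 (adjusted p = 6.4e-05). Pgam5, a mitochondrial phosphatase, fell by 0.28 ± 0.07 (adjusted p = 0.00716), and Mul1, an outer membrane ligase, fell by 0.23 ± 0.06 (adjusted p = 0.0115). Spire1, an actin nucleator, was the single gene that rose, by 0.41 ± 0.12 (adjusted p = 0.0183), from 10.3 ± 2.06 CPM in WT CD to 14.8 ± 3.03 CPM in Gαq CD. Mtfr1 and Mtfp1 were the other lower genes.

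Outer membrane partners held the largest fall outside the cardiolipin genes. Rhot2, a GTPase that ties mitochondria to transport motors, fell by 0.70 ± 0.08 (edgeR adjusted p = 1.31e-06). It ran from 91.4 to 118.4 CPM in WT CD and from 51.8 to 67.6 CPM in Gαq CD, and from 78.5 to 115.1 CPM in WT ERTU and from 54.2 to 68.3 CPM in Gαq ERTU. Its relative Rhot1 was lower too, so 2 of 7 genes were called, with a list median of -0.11. The 7 were Miga1, Miga2, Rhot1, Rhot2, Trak1, Trak2 and Slc25a38, not all of them proteins of the outer membrane. Of 9 genes for cardiolipin, the inner membrane lipid, 2 were lower, with a list median of -0.04 and 4 of 9 above 0. As a share of all tested genes, 9.83% were lower and 19.5% were called in either direction. Counts of 2 in lists this short are therefore not a result about either list as a whole. Lclat1, an acyltransferase that remodels cardiolipin, fell by 0.94 ± 0.10 (adjusted p = 3.99e-07), from 200.9 ± 43.0 CPM in WT CD to 105.8 ± 18.9 CPM in Gαq CD, and Taz, which encodes tafazzin, was the second. Groups did not overlap on either diet for Rhot2 and Lclat1, nor for Htra2, Mief2 and Slc25a46 of the lists above. The share of all tested genes that separate in this way was not counted, so no weight can be given to it.

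For reference, 41 of 74 genes for the respiratory chain and ATP synthase (55.4%) were lower by genotype, with a median log2 fold change of -0.26, and 0 were higher. Over all tested genes, 9.83% were lower. Of 10 other mitochondrial proteins, 6 were lower, with a median of -0.31. Of 6 regulators of mitochondrial gene expression, 2 were lower, with a median of -0.18. The median of the 10 members (-0.08) was nearer to 0 than each of these, and no test compared the lists. By diet, 71 of 74 respiratory chain genes were above 0 with a median of 0.09 and 0 called, while 5 of 10 members were above 0 with a median of -0.01.

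**Figure D4:**
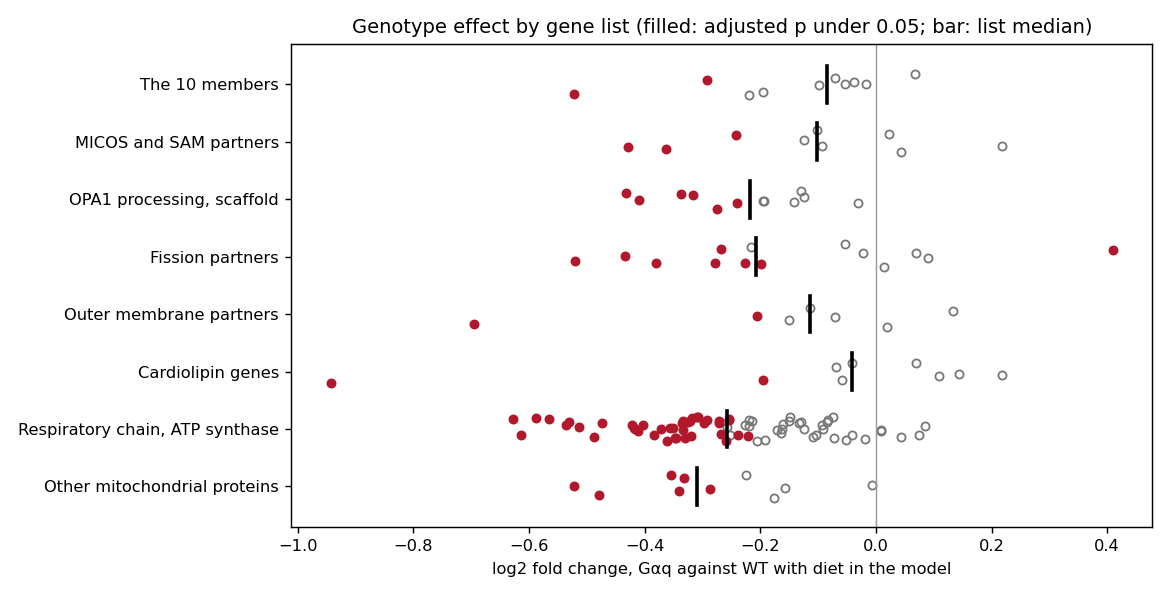
Log2 fold change by genotype of every tested gene in the members and 7 other lists. Each circle is a gene, filled where the adjusted p was under 0.05, and black bars are list medians. Of the members, 2 of 10 are filled, against 41 of 74 for the respiratory chain and ATP synthase. Over all tested genes 19.5% were called, and 9.83% were called lower.

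Within groups, some members varied together and others in opposition. After each group's mean log2 CPM was subtracted, and over the 18 libraries, Mfn2 and Opa1 had a Pearson r of 0.87, Opa1 and Dnm1l of 0.84 and Mfn1 and Immt of 0.80. Fis1 and Chchd3 had an r of 0.81 with each other, while Fis1 had -0.75 with Mfn2 and -0.67 with Opa1. These are descriptions, since the points share their library and its depth. Fis1 and Chchd3 have the shortest longest-transcripts of the members, at 948 and 1550 bases, and Opa1 the longest, at 6230 bases.

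A length score was therefore made for each library, after the values were seen, as the median deviation of 3205 genes with transcripts of 5000 bases or more minus that of 1444 genes with transcripts of 1500 bases or less (log2 scale). The score lay between -0.07 and 0.21 in WT CD and between -0.12 and 0.18 in Gαq CD. It lay between -0.22 and 0.14 in WT ERTU and between -0.44 and 0.26 in Gαq ERTU, so the groups overlapped and libraries 16 (-0.44) and 17 (0.26) of Gαq ERTU were its extremes. Within groups it had an r of -0.94 with Fis1 and -0.80 with Chchd3, and of 0.75 with Mfn2, 0.74 with Opa1 and 0.61 with Dnm1l. Its r with Mfn1 was 0.30, with Immt 0.21, with Oma1 0.09 and with Samm50 -0.03. Mff had an r of -0.41, opposite in sign to Dnm1l, although their longest transcripts are of like length (3918 and 3966 bases). With the score as a covariate, the log2 fold change by genotype was -0.51 for Opa1 (edgeR adjusted p = 5.23e-05) and -0.29 for Immt (adjusted p = 0.00299). On each diet alone Opa1 then passed in both comparisons, at -0.48 on control diet (adjusted p = 0.00831) and at -0.55 on ertugliflozin (adjusted p = 0.00319). Immt passed on ertugliflozin (adjusted p = 0.0498) and Mfn1 by genotype (adjusted p = 0.0454). The same fit called more of all genes, 1602 against 1288 on control diet and 1661 against 1298 on ertugliflozin. By genotype it called 3615 against 3174. By their lengths Opa1 and Fis1 are themselves among the genes that make the score, so these passes are no independent support.

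**Figure D5:**
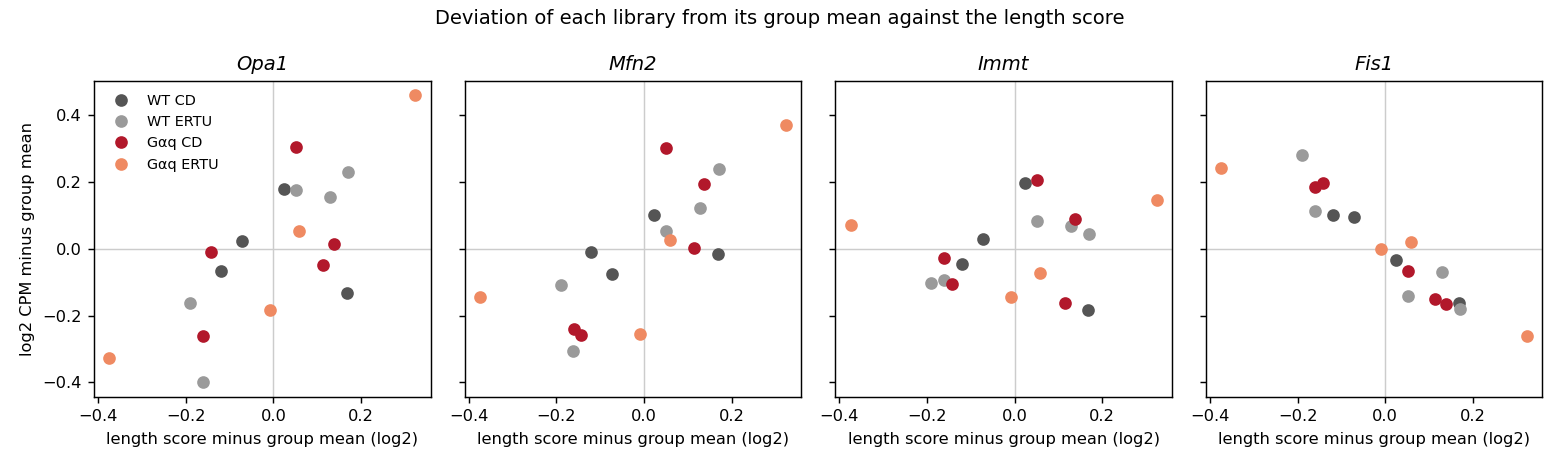
Deviation of each of the 18 libraries from its group mean for Opa1, Mfn2, Immt and Fis1 (log2 CPM), against the deviation of its length score, with colours for groups. Opa1 and Mfn2 rise with the score, Fis1 falls with it (r = -0.94) and Immt shows little relation (r = 0.21).

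The genes most like the 2 lower members within groups differed from each other. Among 13088 genes with a mean log2 CPM of at least 1, those nearest to Opa1 over the 18 libraries were Ctnna3 (r = 0.957), Kif21a (r = 0.954) and Kif16b (r = 0.948). The length score, with which Opa1 had an r of 0.74, was not removed, and its part in these values was not tested. Those near Immt included Sdha (r = 0.978), a subunit of succinate dehydrogenase, and Iars2 (r = 0.908), a mitochondrial tRNA synthetase.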

How the data were processed

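Raw counts per gene and variance-stabilized values (log2 scale) were deposited by the authors. The authors aligned 100-bp paired-end reads from poly(A)-selected libraries to mm10 with STAR 2.6.0c. They counted uniquely aligned proper pairs on the same strand for nuclear-encoded genes with featureCounts (Subread 1.6.2). The log2-scale values deposited by the authors came from DESeq2, and the submitters' processing notes give its version as 1.23.10. Count columns name a group and a number that runs over the series, so they were matched to groups and not to single samples.

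Raw counts were tested with edgeR 4.0.16 in R 4.3.3 (TMM, filterByExpr, robust quasi-likelihood F test, Benjamini-Hochberg over 16270 genes, threshold 0.05). The genotype and diet effects came from an additive model of both, and the other comparisons from a model with a mean for each of the 4 groups, always on all 18 libraries. Genes left out by the filter held 0.0906% of counts. Standard errors and 95% intervals were derived from the F statistic. Depth was 15383566 to 20908363 counts per library, and replicates of a group differed beyond sampling noise in all 32 pairs (lowest chi-square per gene 11.5).

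Alternatives used limma 3.58.1 (voom with sample weights, and the deposited values), DESeq2 1.42.0, other filters, other size factors, pairwise fits and each library left out. The non-robust fit and the length covariate were chosen after seeing the data. The members and lists were chosen with earlier results of these data known. All members were named, and partners with an adjusted p under 0.05 in any comparison were named with values up to 15, by the smallest p for genotype. The closest genes were the 3 with the largest r for each called member, of which 1 is not reported here. Gene symbols, lengths and coordinates came from GENCODE M21 (GRCm38), which matched 99.4% of the identifiers, while the authors counted on a different Ensembl release.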

Additional observations from a re-analysis of the deposited data

Results flagged for a closer look

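In 4 of 56 groups of values (10 members and 4 ratios in 4 groups each), a library stood apart from the rest of its group by Dixon's criterion, where chance gives about 2.8. Samm50 in library 5 of WT CD was at 315.5 CPM against 363 to 370.3 CPM in the other WT CD libraries (gap over range 0.867). Samm50 in library 14 of WT ERTU was at 309.4 CPM against 369.1 to 379.6 CPM (0.85). Oma1 in the same library was at 33.72 CPM against 43.61 to 47.32 CPM (0.728). Libraries 5 of WT CD and 14 of WT ERTU also had the lowest summed cardiomyocyte markers of their groups (79380 and 73460 CPM). Their summed fibroblast markers (3149 and 2885 CPM) and atrial markers (321.3 and 335.3 CPM) were the highest of their groups. Whether this has a part in the flagged values, or in the fits without these libraries, was not tested. The log2 ratio of Chchd3 to Immt in library 17 of Gαq ERTU was -0.53 against -0.05 to -0.02 (0.938). Library 17 also had the highest length score (0.26), and library 16 of the same group, which was not flagged, had the lowest (-0.44). Without these libraries, Samm50 averaged 367 ± 3.7 CPM in WT CD (SD, n = 3) and 373.9 ± 4.98 CPM in WT ERTU (n = 4), Oma1 averaged 46.1 ± 1.73 CPM in WT ERTU (n = 4), and the Chchd3 to Immt ratio averaged -0.04 ± 0.02 in Gαq ERTU (n = 3). The log2 fold change of Samm50 by genotype was -0.05 with all libraries, -0.08 without library 5 of WT CD and -0.08 without library 14 of WT ERTU, and it did not pass the test in any of these fits.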

How the results depend on the processing

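Across 8 or 9 other settings for each comparison, no called log2 fold change of a member reversed its sign, and 0 members were called by diet, by ertugliflozin in either genotype or by the interaction in any setting, leave-one-out fits included. By genotype 2 members were called, 2 to 4 without single libraries, and 4 with limma voom (Opa1, Immt, Mfn1 and Oma1). The counts stayed within 2 to 3 elsewhere. Over all genes, the main fit called 3174 of 16270 by genotype and limma voom called 3881 of 16270. DESeq2 called 3527 of 19898 and the fit with the length score 3615 of 16270. Without single libraries, 2781 to 3407 genes were called. In Gαq CD against WT CD, 0 were called. There 1 member (Opa1) was called by DESeq2, by limma voom, with only the groups compared and with the length score as a covariate. Without single libraries, 0 to 1 were called. Over all genes, the main fit called 1288 of 16270 there, DESeq2 1670 of 18194 and limma voom 1711 of 16270. With only the groups compared it was 1021 of 15682, and with the length score 1602 of 16270. Without single libraries, 770 to 1411 genes were called. In Gαq ERTU against WT ERTU, 1 member was called. There 2 were called by DESeq2, 3 by limma voom, 2 with the length score and 0 with only the groups compared. Without single libraries, 0 to 2 were called. Over all genes, the main fit called 1298 of 16270 there, DESeq2 1764 of 17056 and limma voom 2719 of 16270. With the length score it was 1661 of 16270, and with only the groups compared 1239 of 15686. Without single libraries, 945 to 1660 genes were called. With only the groups compared, fewer samples enter the fit. The cause of the differences between settings was not tested for any of them.

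Opa1 on control diet was called without library 6 of Gαq CD (edgeR adjusted p = 0.0312), 14 of WT ERTU (0.0416) or 17 of Gαq ERTU (0.0295). These were 3 of 18 such fits, and its adjusted p ran up to 0.183 in the rest. Oma1 on ertugliflozin was called without library 14 of WT ERTU (0.0338), which was 1 of 18 such fits. Its adjusted p ran up to 0.356 in the rest. No paired analysis was possible because library numbers in the count table run on from group to group, so the groups compared have none in common. Protein levels, OPA1 cleavage and mitochondrial shape are not measured by these counts.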
